A study of Homo sapiens with 5 samples.

Results

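The 32 genes described here belong to the ATF4 arm of the integrated stress response and to the amino acid transport that it serves. They were taken by symbol from a deposited table of 58174 genes, all 32 were found there once each, and all 32 were among the 17049 genes with a mean of at least 1 TPM that were tested. RNA was sequenced from Ishikawa, a human cell line established from an endometrial carcinoma. The 3 sh-LINC00958 libraries came from cells infected with a lentiviral short hairpin RNA against the long non-coding RNA LINC00958, and the 2 sh-NC libraries from cells labelled as negative control. The labels of both groups give the same selection, puromycin at 2.5 µg/ml from 72 h after infection. The labels name neither the number of hairpins nor the time of harvest, and do not say whether a line is 1 clone. They do not call the libraries separate cultures either, and p-values here therefore rest on a spread between samples that may be only technical. The comparison asks which transcripts differ when LINC00958 is knocked down, here to 50.04% of its control mean.

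ATF4 is a transcription factor whose protein is made mainly when the initiation factor eIF2 is phosphorylated. The kinases that do this sense stress, GCN2 (gene EIF2AK4) responding to uncharged tRNA and HRI (gene EIF2AK1) to haem shortage and mitochondrial stress. Much of the control of ATF4 is therefore translational, and its mRNA level is not a measure of its activity. ATF4 binds C/EBP-ATF response elements together with C/EBP family partners and drives genes for amino acid import, amino acid synthesis and the later recovery of translation. In carcinoma cells these transporters supply glutamine, leucine and cystine, the last for glutathione.

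The core of that response element was looked for in the promoters of the genes, because it is the sequence through which ATF4 is known to act. The windows come from RefSeq on GRCh38.p14 and run from 250 bases before to 50 after each annotated start. Windows were at hand for 26 of the 32 genes, and SLC7A11, GPT2, NUPR1, PYCR1, EIF4EBP1 and EIF2AK1 had none. The motif TGATGNAA, read on both strands, was found in 8 of these 26 genes (30.8%), against 4.46% of the 27305 genes with a window. Counted by window it was in 8 of 44 (18.2%), against 3.62% of 35116. The genes were listed as part of the ATF4 response, so the higher shares may follow from that choice and say nothing about the knockdown. The 8 matches are given below, 30 bases each on the strand of the gene, with the motif or its reverse complement in capitals.
SLC1A5: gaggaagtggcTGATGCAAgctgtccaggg
JDP2: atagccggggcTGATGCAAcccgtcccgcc
CEBPG: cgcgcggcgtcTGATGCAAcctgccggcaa
ASNS: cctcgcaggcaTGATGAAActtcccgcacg
SLC7A1: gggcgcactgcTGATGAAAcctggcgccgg
CHAC1: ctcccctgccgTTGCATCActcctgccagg
SLC1A4: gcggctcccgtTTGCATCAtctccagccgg
SLC3A2: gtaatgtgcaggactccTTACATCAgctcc
The ASNS stretch lies at chr7:97872458-97872487 on the minus strand, 68 bases before a start, and holds the letters known as the nutrient-sensing response element of that promoter. The SLC1A5 stretch lies at chr19:46784893-46784922 on the minus strand, 97 bases before a start, where GENCODE 29 places a non-coding part of an exon. That start lies inside the gene, which on its strand begins at 46788594, so it is not the outermost start. The JDP2 stretch (chr14:75427995-75428024, plus strand), the CEBPG stretch (chr19:33374060-33374089, plus strand) and the SLC1A4 stretch (chr2:64989381-64989410, plus strand) have their motif in an annotated intron. Those of SLC7A1 (chr13:29595663-29595692, minus strand), CHAC1 (chr15:40953251-40953280, plus strand) and SLC3A2 (chr11:62881719-62881748, plus strand) have it in a non-coding part of an exon. The SLC3A2 stretch too lies well inside its gene, which begins at 62856102. A match is only a run of letters, and no match says only that these letters are not in this window.

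Values are in TPM, which are scaled for gene length and for the total of each library. Levels of different genes can therefore be compared, but depth is unknown and every value is relative to the rest of its library. LINC00958 itself measured 67.2, 67.1 and 58.4 TPM in sh-LINC00958 against 119 and 137 TPM in sh-NC, or 50.04% of its control mean. Epithelial markers were high, with summed levels of 2408 to 2578 TPM over 11 genes in sh-LINC00958 and 2449 to 2478 TPM in sh-NC, while ESR1 and PGR were at or near 0 in every library. Within that sum single markers differed. KRT8, KRT18 and KRT19 were higher and PAX8, EPCAM, SOX17 and CLDN4 lower in all sh-LINC00958 libraries, CLDN4 with 3.61, 2.76 and 3.67 TPM in sh-LINC00958 against 12.8 and 44.8 TPM in sh-NC. Their part in the results below was not tested. The fibroblast list summed to 5.51 to 6.20 TPM in sh-LINC00958 and 5.26 to 5.33 TPM in sh-NC, and the blood cell list stayed at or below 0.765 TPM in both groups. The endothelial list summed to 4.55 to 6.28 TPM in sh-LINC00958 and 6.88 to 7.47 TPM in sh-NC, with KDR at 0, and the kidney and neural list to 3.38 to 4.70 TPM and 2.16 to 2.48 TPM, with NEFL, NEFM and PAX2 at 0. On the first principal component, which held 51.1% of the variance, sh-LINC00958 replicate 2 was the library of its group nearest to sh-NC. Results that rest on it are given with and without it.

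Of the 32 genes, 4 rose in sh-LINC00958 (GPT2, TRIB3, PPP1R15A and SLC1A5), 3 fell (SLC7A11, VLDLR and XPOT) and 25 did not pass. The test was limma on log2(TPM + 1) over all 17049 genes, two-sided, with a Benjamini-Hochberg adjusted p under 0.05. The 7 called genes are 21.88% of the 32. Of all tested genes 9.8% were called, 4.12% higher and 5.68% lower. These 32 genes were also more expressed than most, with a median mean level of 49.06 TPM against 15.85 TPM over all tested genes. Where a mean of at least 5 TPM was required, 6.94% of the genes tested were called higher and 8.99% lower. The 32 genes were also richer in GC, with a median transcript GC content of 55.41% against 49.49% over all tested genes. The parts of expression level and GC content in the gap were not tested. In bulk RNA a change in every cell and a change in the share of cells that carry a transcript cannot be told apart. At an unadjusted limma p under 0.05, 14 of the 32 passed, against 30.7% of all tested genes. The median log2 fold change was 0.05 over the 32 genes and 0.00 over all tested genes, and the median size was 0.26 and 0.24. No common direction was seen, since 18 fold changes were above 0 and 14 below. The groups did not overlap for 22 of the 32 (13 higher, 9 lower), or 68.75%, against 49.9% of all tested genes, 24.4% higher and 25.5% lower. The calls, though not the fold changes of the 7 genes, depended on which libraries were fitted. Their log2 fold changes kept their sign and most of their size whichever library was left out, between 1.03 and 1.32 for GPT2, 0.71 and 0.88 for TRIB3, 0.65 and 0.68 for PPP1R15A, and 0.59 and 0.67 for SLC1A5. Those of the genes that fell ran from -1.10 to -0.99 for SLC7A11, -0.92 to -0.76 for VLDLR and -0.59 to -0.45 for XPOT. Calls over the whole table dropped in these fits too, except where sh-LINC00958 replicate 2 was left out. Without sh-LINC00958 replicate 1, 1 of the 32 was called higher and 0 lower, where 0.211% and 0.299% of all tested genes were. With sh-LINC00958 replicate 3 left out it was 1 higher and 1 lower, beside 0.657% and 0.85% of all tested genes. Leaving out either control library left 0 of the 32 called. The lowest limma adjusted p of the 32 was then that of SLC7A11, at 0.0823 without the control numbered 1 and 0.0789 without the control numbered 2. At an unadjusted limma p under 0.05 6 of the 32 were higher and 4 lower without the control numbered 1, beside 9.37% and 12% of all tested genes. Without the control numbered 2 it was 9 higher and 5 lower, beside 10.3% and 9.97% of all tested genes. Of all tested genes 0.123% were called higher and 0.0704% lower without the control numbered 1, and 0.0587% and 0.0352% without the control numbered 2. With 1 control left, its spread is taken to be that of the other group. An exact two-sided permutation test of 3 libraries against 2 cannot go below 0.1.

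**Figure D1:**
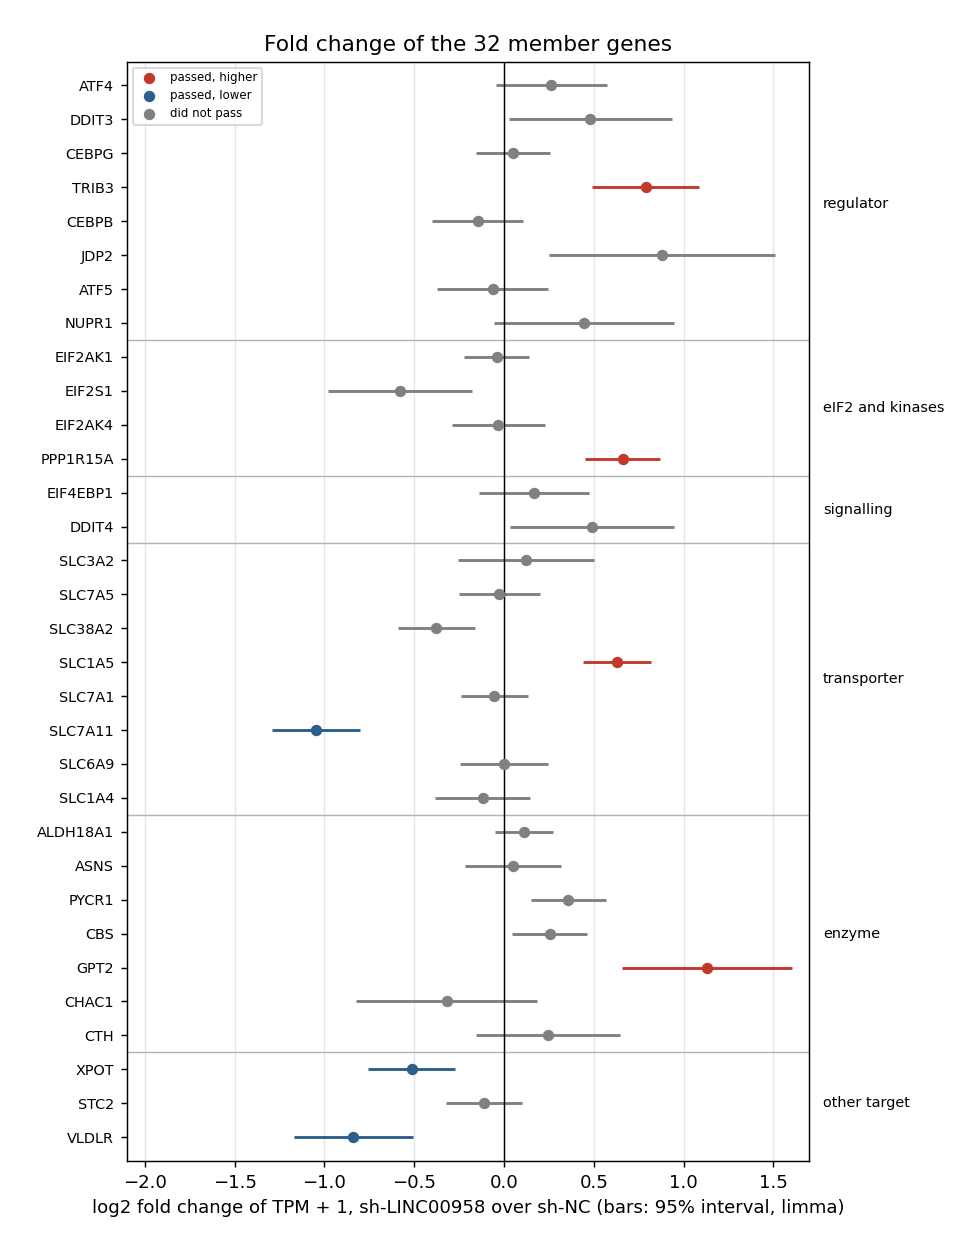
Log2 fold change of TPM + 1, sh-LINC00958 over sh-NC, for the 32 genes grouped by role, with 95% intervals from limma. GPT2 at 1.13 and SLC7A11 at -1.05 lie at the ends of the range, and most intervals include 0.

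On GRCh38 with GENCODE 29, the genes that rose lie at chr16:46884378-46931297 (GPT2, plus strand), chr20:362835-397559 (TRIB3, plus), chr19:48872392-48876057 (PPP1R15A, plus) and chr19:46774883-46788594 (SLC1A5, minus). Those that fell lie at chr4:138164097-138242349 (SLC7A11, minus), chr9:2621834-2660053 (VLDLR, plus) and chr12:64404350-64451127 (XPOT, plus). All 7 are protein-coding.

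ATF4 had the highest mean level of the 32 genes. Its mRNA measured 531, 416 and 539 TPM in sh-LINC00958 against 409.8 and 409 TPM in sh-NC. Replicate 2 of sh-LINC00958 lay just above the controls and the other replicates well above them. The log2 fold change was 0.26 (95% interval -0.05 to 0.57, limma adjusted p = 0.217), and without sh-LINC00958 replicate 2 it was 0.39 and passed (limma adjusted p = 0.0230). With the trend over GC content and length taken out it was 0.11 (limma adjusted p = 0.566).

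TRIB3, a pseudokinase that is induced by ATF4 and CHOP and feeds back on them, measured 35.6, 31.2 and 39.5 TPM in sh-LINC00958 against 20.5 and 19.5 TPM in sh-NC. Every sh-LINC00958 library was above both controls. It averaged 35.5 ± 4.15 TPM (SD, n = 3) in sh-LINC00958 and 19.99 ± 0.662 TPM (SD, n = 2) in sh-NC, with a log2 fold change of 0.79 ± 0.122 (SE, limma adjusted p = 0.0235). TRIB3 passed without sh-LINC00958 replicate 2 (limma adjusted p = 0.0189) but not without any other library, where its adjusted p lay between 0.0573 and 0.136 at log2 fold changes of 0.71 to 0.82.

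DDIT3, which encodes CHOP, a C/EBP family factor of prolonged stress, measured 59.0, 51.9 and 79.1 TPM in sh-LINC00958 against 41.6 and 47.4 TPM in sh-NC. The groups did not overlap, but the log2 fold change of 0.48 did not pass (95% interval 0.03 to 0.93, limma adjusted p = 0.147). Without sh-LINC00958 replicate 2 it was 0.61 and did not pass either (limma adjusted p = 0.0798). DDIT3 shares 355 of its 1307 annotated exon bases with MARS, on the opposite strand. MARS averaged 248.6 TPM in sh-LINC00958 and 201.5 TPM in sh-NC, and since the strand setting is not given here, reads of the pair may not be fully separated. JDP2, an AP-1 repressor that also binds CHOP, gave 14.8, 8.99 and 16.4 TPM in sh-LINC00958 against 6.01 and 7.25 TPM in sh-NC. All sh-LINC00958 libraries were above the controls, with replicate 2 again the lowest. Its log2 fold change of 0.88 was among the largest of the 32 and missed the threshold (95% interval 0.25 to 1.51, limma adjusted p = 0.0833), but passed without sh-LINC00958 replicate 2 (1.12, limma adjusted p = 0.0202).

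The C/EBP partners of ATF4 did not pass. CEBPG, its heterodimer partner at these elements, measured 31.4, 32.7 and 31.5 TPM in sh-LINC00958 against 30.2 and 31.2 TPM in sh-NC. The groups were almost level, and the 95% interval for the log2 fold change ran from -0.15 to 0.26. CEBPB gave an interval of -0.40 to 0.11 and the related factor ATF5 one of -0.37 to 0.25. ATF5 shares 626 of its 2954 exon bases with NUP62 on the opposite strand. ATF5 averaged 7.59 TPM in sh-LINC00958 and 7.96 TPM in sh-NC, and NUP62 87.7 and 83.4 TPM. With the strand setting not given, reads of NUP62 may be counted for ATF5, and the ATF5 interval may partly reflect NUP62. The stress-inducible nuclear protein gene NUPR1 was the lowest of the 32, at 3.03, 2.99 and 2.61 TPM in sh-LINC00958 against 1.36 and 2.43 TPM in sh-NC (log2 fold change 0.44, limma adjusted p = 0.201).

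Of the 4 genes among the 32 that act on or belong to eIF2, PPP1R15A passed. PPP1R15A, which encodes GADD34, the inducible subunit that brings protein phosphatase to eIF2 and so restores translation, measured 30.7, 30.5 and 30.7 TPM in sh-LINC00958 against 19.2 and 18.8 TPM in sh-NC. The libraries of each group were almost level and the groups far apart. The log2 fold change was 0.66 ± 0.0850 (SE, limma adjusted p = 0.0173). It stayed between 0.65 and 0.68 whichever library was left out, although its adjusted p was then under the threshold only without sh-LINC00958 replicate 2 (0.0213) and otherwise between 0.0528 and 0.117.

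EIF2S1, the eIF2 alpha subunit that the stress kinases phosphorylate, measured 109.9, 87.6 and 102 TPM in sh-LINC00958 against 175 and 127 TPM in sh-NC. The groups did not overlap, but the controls lay far apart, and the log2 fold change of -0.58 did not pass (95% interval -0.98 to -0.18, limma adjusted p = 0.0775). Leaving out the control numbered 1 gave -0.35, and leaving out the control numbered 2 gave -0.81. EIF2S1 shares 269 of 5651 exon bases with ATP6V1D on the opposite strand, which had a log2 fold change of -0.05. The kinase genes EIF2AK4 and EIF2AK1 had 95% intervals of -0.29 to 0.23 and -0.22 to 0.14. EIF2AK1 shares 532 of 5550 exon bases with AIMP2 on the opposite strand, which had a log2 fold change of 0.08.

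Neither DDIT4 nor EIF4EBP1, the signalling genes among the 32, passed. DDIT4, which encodes REDD1, an inhibitor of mTORC1, measured 58.1, 43.96 and 62.2 TPM in sh-LINC00958 against 43.8 and 33.5 TPM in sh-NC. The lowest sh-LINC00958 library and the highest control were nearly level. The log2 fold change was 0.49 (95% interval 0.03 to 0.94, limma adjusted p = 0.144), and 0.64 without sh-LINC00958 replicate 2 (limma adjusted p = 0.0592). EIF4EBP1, the translation repressor downstream of mTORC1, averaged 310 ± 41.6 TPM (SD, n = 3) in sh-LINC00958 and 274.9 ± 11.4 TPM (SD, n = 2) in sh-NC (limma adjusted p = 0.414). Its log2 fold change was 0.17, and 0.28 without sh-LINC00958 replicate 2 (limma adjusted p = 0.0521).

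Of the 8 transporter genes SLC1A5 rose and SLC7A11 fell, and the others did not pass. SLC7A11, the light chain of the cystine-glutamate exchanger xCT, measured 31.2, 33.7 and 28.5 TPM in sh-LINC00958 against 65.8 and 64.5 TPM in sh-NC. Its levels did not overlap, and the sh-LINC00958 mean of 31.1 ± 2.62 TPM (SD, n = 3) was 0.477 times the sh-NC mean of 65.2 ± 0.970 TPM (SD, n = 2). The log2 fold change of -1.05 ± 0.0995 (SE, limma adjusted p = 0.0089) had the lowest adjusted p of the 32 genes. It stayed between -0.99 and -1.10 when single libraries were left out. SLC7A11 still passed when sh-LINC00958 replicate 2 (limma adjusted p = 0.0150) or 3 (0.0328) was dropped. It missed the threshold when replicate 1 (0.0533) or either control was, as given above.

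SLC1A5, which encodes ASCT2, a sodium-dependent carrier of glutamine and other neutral amino acids, measured 241, 239.9 and 263.7 TPM in sh-LINC00958 against 155.6 and 164 TPM in sh-NC. Every sh-LINC00958 library was well above both controls. The mean was 248 ± 13.4 TPM (SD, n = 3) in sh-LINC00958 and 159.9 ± 6.13 TPM (SD, n = 2) in sh-NC, with a log2 fold change of 0.63 ± 0.0775 (SE, limma adjusted p = 0.0154). SLC1A5 passed when sh-LINC00958 replicate 2 (limma adjusted p = 0.0193) or 3 (0.0492) was left out. It did not pass without sh-LINC00958 replicate 1 (0.0648) or without the control numbered 1 (0.111) or 2 (0.0959). Its log2 fold change stayed between 0.59 and 0.67.

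SLC38A2, or SNAT2, a further glutamine and alanine carrier that adapts to amino acid shortage, measured 225, 261 and 233 TPM in sh-LINC00958 against 307 and 314 TPM in sh-NC. The groups did not overlap, and the log2 fold change of -0.38 lay just outside the threshold (95% interval -0.59 to -0.16, limma adjusted p = 0.0502). It passed without sh-LINC00958 replicate 2 (-0.44, limma adjusted p = 0.0225). With the trend over GC content and length taken out, described further on, its log2 fold change was -0.06.

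SLC3A2, the heavy chain CD98 that carries both xCT and the leucine carrier LAT1 to the membrane, measured 421, 306 and 423 TPM in sh-LINC00958 against 346 and 350.04 TPM in sh-NC. Replicate 2 of sh-LINC00958 was below both controls and the others above them. The log2 fold change was 0.12 (95% interval -0.26 to 0.50), and 0.28 with a limma adjusted p of 0.0413 without sh-LINC00958 replicate 2. SLC7A5, the LAT1 light chain, measured 367, 332 and 397 TPM in sh-LINC00958 against 377 and 365 TPM in sh-NC, with an interval of -0.25 to 0.20.

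Since a light chain works only with its heavy chain, the ratio of their transcripts was taken within each library, where library scaling cancels. SLC7A11 stood at 0.0741, 0.11 and 0.0673 of SLC3A2 in sh-LINC00958 against 0.190 and 0.184 in sh-NC. The log2 ratio averaged -3.61 ± 0.378 (SD, n = 3) in sh-LINC00958 and -2.42 ± 0.0322 (SD, n = 2) in sh-NC, a difference of -1.19 with groups that did not overlap. By exact permutation, two-sided, p was 0.1, which is the smallest possible here, and 0.2 after adjustment over the 2 ratios. SLC7A5 stood at 0.872, 1.09 and 0.939 of SLC3A2 in sh-LINC00958 against 1.09 and 1.04 in sh-NC, and these overlapped (difference of the log2 ratio -0.15, exact permutation p = 0.4, adjusted p = 0.4).

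The remaining carriers did not pass. SLC7A1, the cationic amino acid carrier, had a 95% interval of -0.24 to 0.13, SLC1A4, a small neutral amino acid carrier, one of -0.38 to 0.15, and the glycine carrier SLC6A9 one of -0.25 to 0.25. SLC6A9 shares 404 of 5159 exon bases with CCDC24 on the opposite strand, which averaged 16.6 TPM in sh-LINC00958 and 12.9 TPM in sh-NC. Reads of that pair may not be fully separated. SLC1A4 was the lowest of the carriers, at a mean of 9.98 TPM in sh-LINC00958 and 10.9 TPM in sh-NC. The highest were SLC3A2 and SLC7A5. SLC7A5 has expressed pseudogenes that may share reads with it, SLC7A5P1 and SLC7A5P2, with means of 4.19 and 2.50 TPM in sh-LINC00958 and 2.92 and 1.11 TPM in sh-NC.

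**Figure D2:**
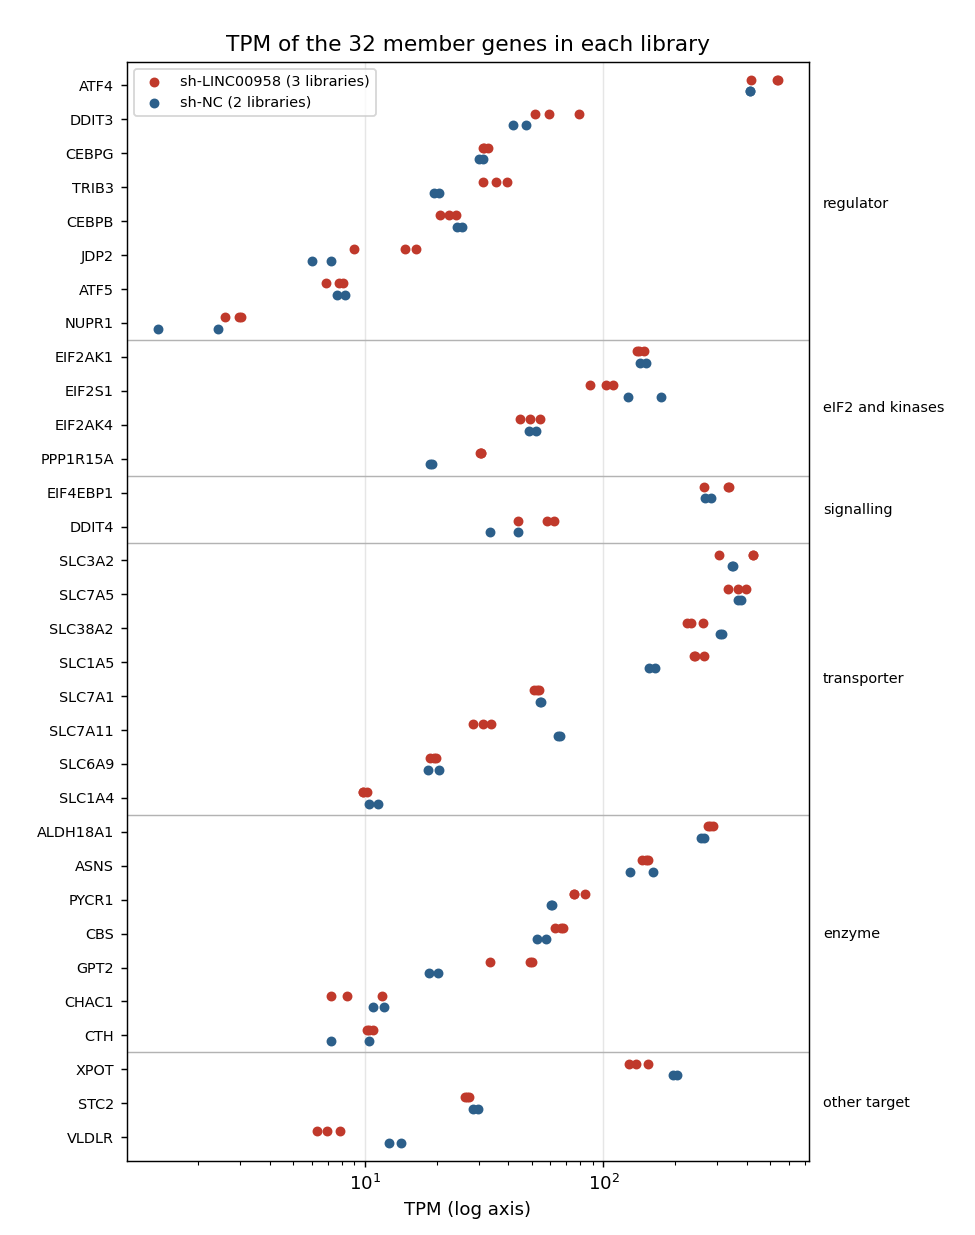
TPM of each gene on a log axis, with 1 point per library, sh-LINC00958 drawn above sh-NC. SLC7A11 (28.5 to 33.7 TPM in sh-LINC00958, 64.5 and 65.8 TPM in sh-NC) and GPT2 (33.5 to 50.4 TPM in sh-LINC00958, 18.6 and 20.3 TPM in sh-NC) separate fully, whereas SLC6A9 and EIF2AK4 overlap.

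Of the 7 enzyme genes GPT2 alone passed. It encodes the mitochondrial alanine transaminase, which passes the amino group of glutamate to pyruvate, and it had the largest rise of the 32 genes. GPT2 measured 33.5, 49.3 and 50.4 TPM in sh-LINC00958 against 18.6 and 20.3 TPM in sh-NC. The groups did not overlap, though sh-LINC00958 replicate 1 lay well below the other libraries of its group. The mean of 44.4 ± 9.51 TPM (SD, n = 3) in sh-LINC00958 was 2.29 times the 19.4 ± 1.21 TPM (SD, n = 2) in sh-NC, with a log2 fold change of 1.13 ± 0.193 (SE, limma adjusted p = 0.0279). GPT2 passed without sh-LINC00958 replicate 1 (1.32, limma adjusted p = 0.0344) and replicate 2 (1.04, 0.0455). It did not pass without sh-LINC00958 replicate 3 (1.03, limma adjusted p = 0.0725) or without the control numbered 1 (1.07, 0.141) or 2 (1.19, 0.136).

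PYCR1, the last step of mitochondrial proline synthesis, measured 83.8, 74.96 and 75.4 TPM in sh-LINC00958 against 60.3 and 60.9 TPM in sh-NC. Its groups did not overlap, and its log2 fold change of 0.36 missed the threshold narrowly (95% interval 0.15 to 0.57, limma adjusted p = 0.0543). ALDH18A1, which starts that pathway, had a log2 fold change of 0.11 (95% interval -0.05 to 0.27) with groups that did not overlap either.

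ASNS, asparagine synthetase and a much used readout of ATF4, did not pass, with 144, 154 and 151 TPM in sh-LINC00958, between the sh-NC libraries at 161 and 129.6 TPM. Its 95% interval was -0.21 to 0.32 on the log2 scale. CHAC1, a glutathione-degrading enzyme that is likewise strongly induced by ATF4 in other settings, measured 8.43, 7.23 and 11.8 TPM in sh-LINC00958 against 12.05 and 10.9 TPM in sh-NC (95% interval -0.82 to 0.19). The groups overlapped for both genes.

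The transsulfuration enzymes make cysteine from homocysteine. CBS measured 66.6, 62.9 and 67.99 TPM in sh-LINC00958 against 52.6 and 57.4 TPM in sh-NC, a log2 fold change of 0.25 that did not pass (95% interval 0.05 to 0.46, limma adjusted p = 0.111). GRCh38 holds CBSL, a near-identical copy whose reads cannot be told from those of CBS. CBSL averaged 45.4 TPM in sh-LINC00958 and 39.4 TPM in sh-NC, and the sum of both had a log2 fold change of 0.23. CTH, the next enzyme, averaged 10.5 ± 0.298 TPM (SD, n = 3) in sh-LINC00958 and 8.80 ± 2.24 TPM (SD, n = 2) in sh-NC (95% interval -0.15 to 0.65).

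The other targets included both remaining falls. VLDLR, the very low density lipoprotein receptor, measured 7.92, 6.96 and 6.34 TPM in sh-LINC00958 against 12.6 and 14.2 TPM in sh-NC. These did not overlap, and the log2 fold change was -0.84 ± 0.136 (SE, limma adjusted p = 0.0258). XPOT, the exportin that carries tRNA out of the nucleus, measured 136, 154 and 128 TPM in sh-LINC00958 against 195 and 203 TPM in sh-NC, also without overlap (log2 fold change -0.51 ± 0.0983, SE, limma adjusted p = 0.0345). VLDLR and XPOT passed without sh-LINC00958 replicate 2 (0.0371 and 0.0193) and lost their calls without any other library, at limma adjusted p-values of 0.0657 to 0.149 for VLDLR and 0.0783 to 0.172 for XPOT and with log2 fold changes in the ranges given above. STC2, a secreted stanniocalcin, had a 95% interval of -0.32 to 0.10.

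The libraries of sh-LINC00958 did not behave alike over these genes. Replicate 2 had the lowest value of its group for 17 of the 32, against 29.8% of all tested genes, and replicate 3 had the lowest for 9, against 43.05% of all tested genes. Genes in which replicate 2 was lowest included ATF4, DDIT3, DDIT4, TRIB3, JDP2, CHAC1, SLC3A2, SLC7A5 and EIF4EBP1. The median transcript GC content was 55.41% for the 32 genes and 49.49% for all tested genes, and its part in this pattern was not tested. Without sh-LINC00958 replicate 2, 11 of the 32 genes passed, the 7 named above together with ATF4, JDP2 and SLC3A2 as rises and SLC38A2 as a fall. Without that library 5.3% of all tested genes were called higher and 8.72% lower.

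Under the other choices plotted, the shares of all tested genes called higher and lower were as follows. They were 4.13% and 5.47% with a pseudocount of 0.1, where 4 and 3 of the 32 were called, and 4.14% and 6.06% with a pseudocount of 5, with 4 and 4 of the 32. A mean of at least 5 TPM gave 6.94% and 8.99%, and median-ratio scaling 4.46% and 6.46%, each with 5 and 4 of the 32. NUPR1 fell below the filter of 5 TPM and was not tested there. No filter gave 0.587% and 0.763%, with 2 and 1 of the 32, and no mean-variance trend 2.18% and 3.04%, with 4 and 2. The replicate block gave 0% and 0.0117%, with 0 and 0 of the 32. Replicate number 3 exists only in sh-LINC00958, so in that fit its library did not inform the fold changes. These equal the ones without it, for SLC7A11 -0.99 in both fits. Few degrees of freedom were left, so the loss of calls there cannot be read as a loss of effect.

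**Figure D3:**
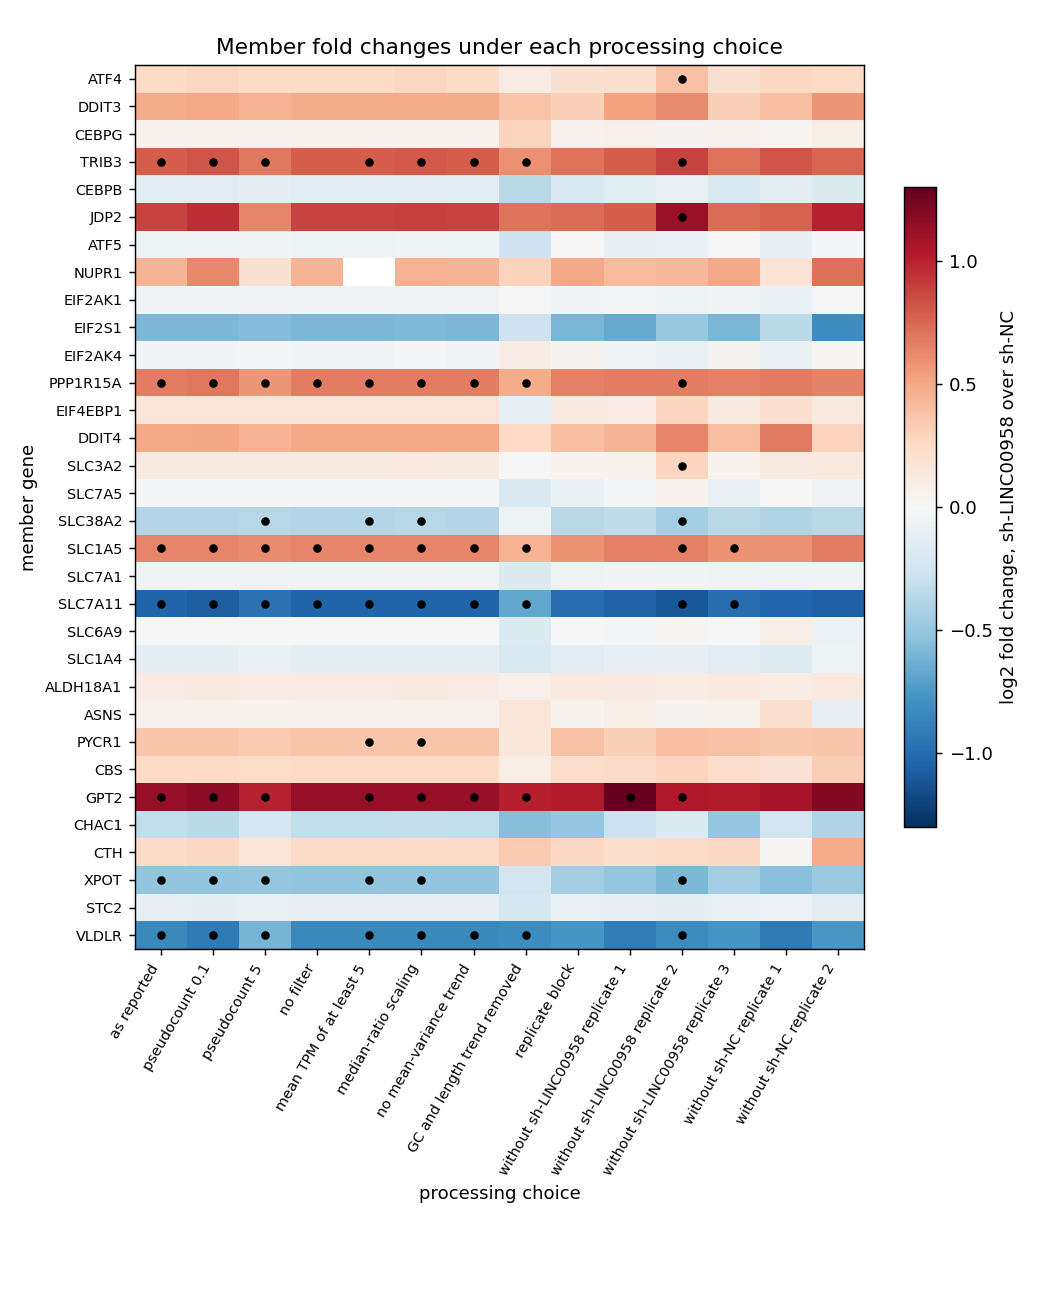
Log2 fold change of each gene, sh-LINC00958 over sh-NC, under each processing choice, with a black dot where the limma adjusted p was under 0.05. NUPR1 is blank where a mean of at least 5 TPM was required, and no gene has a dot where 1 sh-NC library was left out or the replicate block was used.

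Transcript GC content moved with the fold changes across the table. The 4 genes that rose had a mean GC content over their annotated transcripts of 55.5% (GPT2), 57.7% (PPP1R15A), 58.4% (SLC1A5) and 61.6% (TRIB3), and the 3 that fell had 38.6% (SLC7A11), 41.2% (XPOT) and 48.2% (VLDLR), around a median of 49.49% for all tested genes. All genes called higher had a median of 56.9% and all called lower 42.2%, and a model of GC content with exon length had an R2 of 20.6% for fold change. With that trend removed from each library, 6 of the 7 genes still passed, where 2.34% of all genes were called higher and 2.69% lower. Log2 fold changes were then -0.67 for SLC7A11 (limma adjusted p = 0.0141), -0.82 for VLDLR (0.0321), 0.45 for SLC1A5 (0.0254), 0.48 for PPP1R15A (0.0343), 0.59 for TRIB3 (0.0346) and 1.01 for GPT2 (0.0494). Among genes that had not passed, the log2 fold change was then 0.15 for PYCR1, -0.26 for EIF2S1, 0.26 for DDIT4, 0.08 for CBS and 0.71 for JDP2. It was larger in size than before, among others, for CHAC1 (-0.55), CEBPB (-0.36) and CEBPG (0.29, limma adjusted p = 0.0915), none of them called. XPOT was not called (-0.25, limma adjusted p = 0.0921). The changes of SLC7A11 and XPOT were over 1.5 times smaller, and those of GPT2 and VLDLR barely moved.

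**Figure D4:**
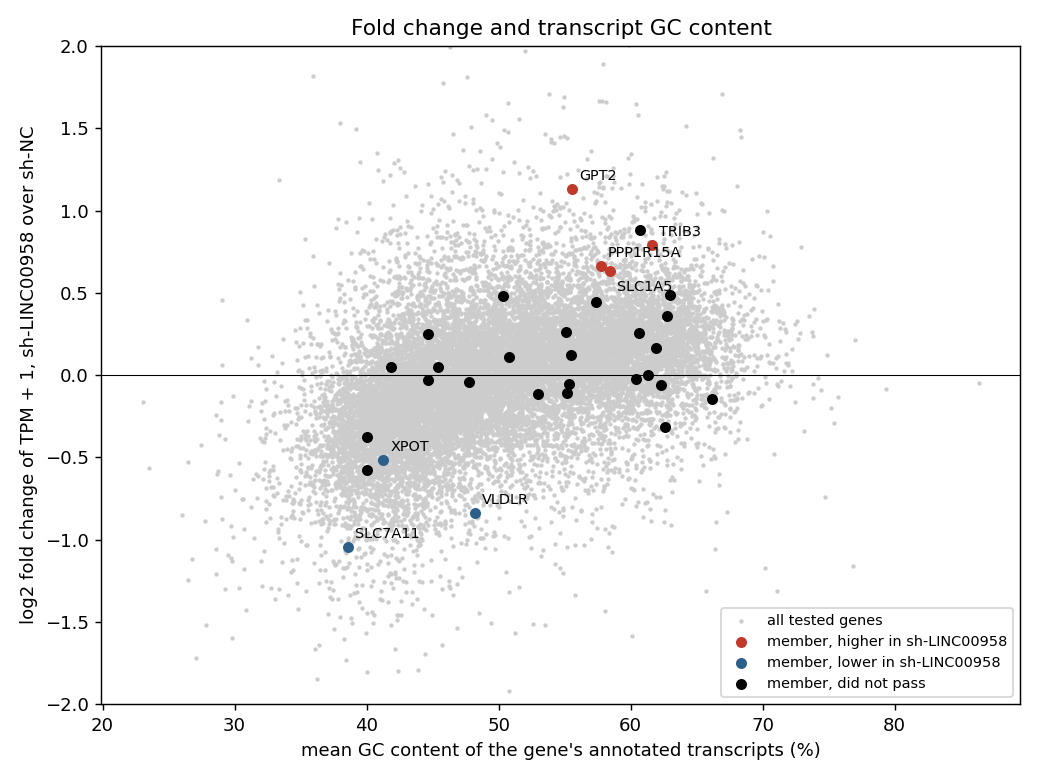
Log2 fold change of TPM + 1, sh-LINC00958 over sh-NC, against the mean GC content of the annotated transcripts of each gene, with 27 genes beyond the fold range left off. The genes that rose lie at 55.5% GC or more and those that fell at 48.2% or less, with all tested genes in grey. With the trend over GC content and length removed, 6 of the 7 called genes still passed.

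Of the 5 called genes with a promoter window, 1 (SLC1A5) held the TGATGNAA motif shown above, and TRIB3, PPP1R15A, VLDLR and XPOT did not. The other 7 genes with the motif, ASNS, CHAC1 and CEBPG among them, were not called.

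Genes of the same pathways outside the 32 were described from 5 lists. Their counts of called genes stand beside 4.12% of all tested genes called higher and 5.68% called lower. Those at an unadjusted limma p under 0.05 stand beside 2446 higher and 2784 lower of the 17049 tested genes, together 30.7%. Of 30 measured integrated stress response genes 1 rose, 1 fell and 28 did not pass, with a median log2 fold change of 0.10 against 0.00 over all tested genes. At an unadjusted limma p under 0.05 it was 5 higher and 4 lower. NFE2L1, a transcription factor of the proteasome recovery response, rose with 140.2, 135 and 125.9 TPM in sh-LINC00958 against 71.9 and 65.2 TPM in sh-NC (0.95, limma adjusted p = 0.0089). EIF2S2, the eIF2 beta subunit, fell (-0.30, limma adjusted p = 0.0472). HERPUD1, an endoplasmic reticulum stress target, had a log2 fold change of 0.74 that did not pass (limma adjusted p = 0.0544). Without sh-LINC00958 replicate 2 HERPUD1 passed (0.91, limma adjusted p = 0.0154). Next by p were EIF2AK2 (-0.53, limma adjusted p = 0.0653) and PPP1R15B (-0.37, 0.0692), both lower in sh-LINC00958 and not called. They too passed without sh-LINC00958 replicate 2 (-0.62, limma adjusted p = 0.0465, and -0.43, 0.0343).

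Of 24 further amino acid transporters measured, 0 rose and 2 fell, at a median of -0.02. At an unadjusted limma p under 0.05 there were 3 higher and 6 lower, and no other tool was run. The lysosomal tryptophan and proline carrier SLC36A4 measured 10.6, 11.7 and 17.7 TPM in sh-LINC00958 against 35 and 33.9 TPM in sh-NC (-1.34, limma adjusted p = 0.0253). SLC38A9, the lysosomal arginine sensor, fell by 0.44 on the log2 scale (limma adjusted p = 0.0475). SLC38A9 did not pass without sh-LINC00958 replicate 2 (-0.44, limma adjusted p = 0.0641).

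Among 18 ATF4 targets of serine synthesis, one-carbon metabolism and tRNA charging 2 rose and 0 fell, at a median of 0.05, with 4 higher and 1 lower at an unadjusted limma p under 0.05. These were PHGDH, the first enzyme of serine synthesis (0.47, limma adjusted p = 0.0275), and the alanyl-tRNA synthetase AARS (0.37, limma adjusted p = 0.0363).

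Of 29 genes of amino acid sensing by mTORC1, 3 rose and 5 fell, at a median of 0.06, with 7 higher and 8 lower at an unadjusted limma p under 0.05. RHEB, the GTPase that activates mTORC1, measured 138, 134 and 132 TPM in sh-LINC00958 against 231 and 291 TPM in sh-NC (-0.94, limma adjusted p = 0.0138). SESN3 of the sestrin family (-1.3), the S-adenosylmethionine sensor BMT2 (-0.89), the folliculin partner FNIP2 (-0.76) and the Rag GTPase RRAGC (-0.70) fell as well. NPRL3 (0.53), a subunit of the GATOR1 inhibitor, AKT1S1 (0.37) and the mTORC1 subunit RPTOR (0.47) rose.

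Of 19 other enzymes of proline, glutamine and glutathione metabolism 0 rose and 4 fell, at a median of -0.19, with 1 higher and 5 lower at an unadjusted limma p under 0.05. GCLM, the modifier subunit of the first enzyme of glutathione synthesis, measured 31.4, 40.1 and 30.8 TPM in sh-LINC00958 against 64.8 and 76.3 TPM in sh-NC (-1.03, limma adjusted p = 0.0201). CHAC2, a paralogue of CHAC1 (-0.72), and the glutamate dehydrogenase GLUD1 (-0.32) fell as well. With the trend over GC content and length taken out, NFE2L1, PHGDH, RHEB, BMT2, SESN3, FNIP2 and GCLM were still called. EIF2S2, SLC36A4, SLC38A9, AARS, RRAGC, NPRL3, AKT1S1, RPTOR, CHAC2 and GLUD1 were not.

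**Figure D5:**
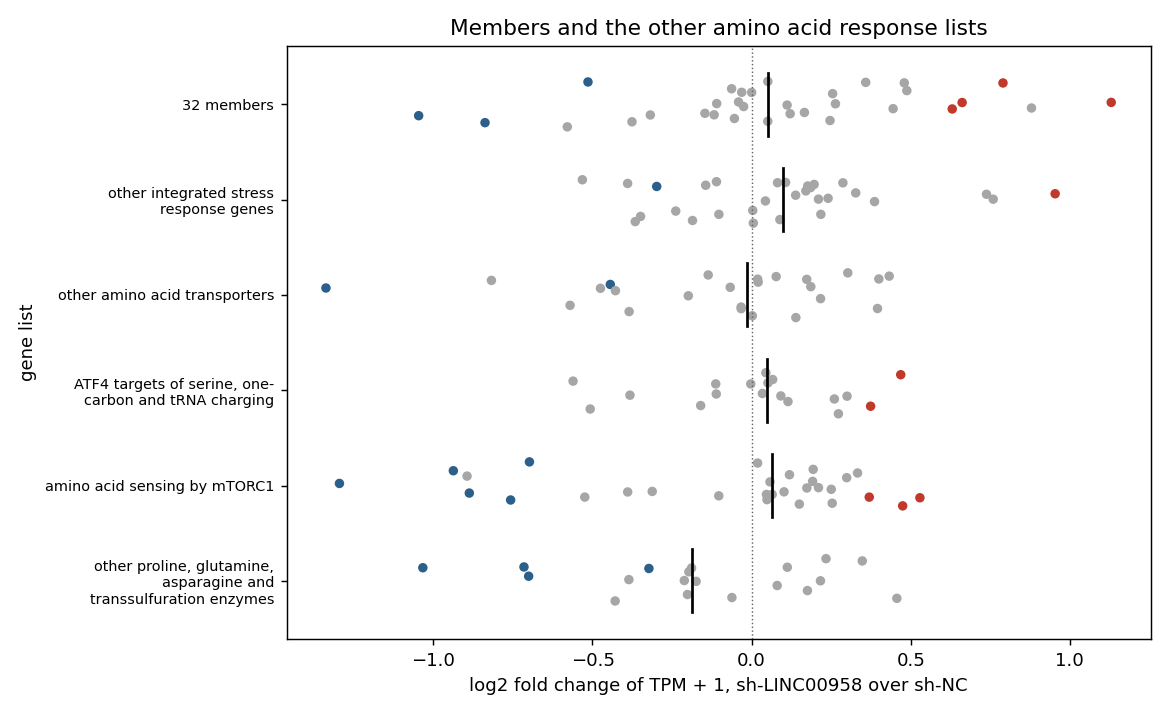
Log2 fold change of TPM + 1, sh-LINC00958 over sh-NC, with 1 point per gene for the 32 genes and the 5 further lists, red where called higher, blue where called lower and grey otherwise. Black bars mark medians, which lie between -0.19 and 0.10.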

How the data were processed

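Gene values were deposited by the authors as TPM in 1 table of 58174 genes and 5 libraries, and no column outside the labelled samples was used. Per the submitters' processing notes, the tools were FastQC 0.11.2, Trimmomatic 0.36, HISAT2 2.0 and StringTie 1.3.3b on GRCh38. No source used here gives the annotation release or whether counting used strand. TPM keeps no sequencing depth, so no counting interval is given. From these values log2(TPM + 1) was fitted with limma 3.58.1 in R 4.3.3 (eBayes with a mean-variance trend, group as the only term), for genes with a mean of at least 1 TPM. Adjustment was by Benjamini-Hochberg over the 17049 genes, with a threshold of 0.05. Fold changes on this scale understate those of low genes. Transcript GC content and exon length came from GENCODE 29, and their trend was removed per library with natural splines of 5 degrees of freedom. Every member is named, and from the further lists every gene past the threshold and up to 3 others, except for items not reported here. The members and lists were chosen with earlier results of these data known. Ratios of transcripts were tested by exact permutation. Alternatives were other pseudocounts, filters, scaling and variance models, the GC removal, a replicate block and leaving out each library.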

Additional observations from a re-analysis of the deposited data

How the results depend on the processing

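The count of all genes called higher and lower was 702 and 969. It was 207 and 269 with no filter, 371 and 518 without the mean-variance trend, 398 and 457 with the GC and length trend removed, and 0 and 2 with the replicate block, where 2000 and 2213 genes, 6 and 6 of them members, had an unadjusted limma p under 0.05. Leaving out single libraries gave 10 to 904 higher and 6 to 1486 lower. For the 32 members the counts of 4 higher and 3 lower became 2 and 1 with no filter and 0 and 0 with the replicate block, and ranged over 0 to 7 and 0 to 4 when single libraries were left out. No label says that a replicate number pairs libraries. Same-numbered libraries deviated with correlations of 0.00131 and 0.0497, and sh-LINC00958 replicate 3 with the control numbered 1 at 0.0483. With 2 controls, their deviations from the group mean are exact opposites, so these values cannot decide on pairing. Replicate number 3 is in sh-LINC00958 only, so the fold changes of the block fit rest on the other libraries, with few degrees of freedom left. Pseudocounts of 0.1 and 5, a mean of at least 5 TPM and median-ratio scaling kept all 7 calls. SLC38A2 passed in addition with a pseudocount of 5, and SLC38A2 and PYCR1 with the stricter filter and with the scaling. XPOT lost its call without the trend (limma adjusted p = 0.0652) and after GC removal. TRIB3, GPT2, VLDLR and XPOT lost theirs with no filter, at the same log2 fold changes, where more genes were tested. The direction turned only for uncalled genes. With GC removal these were SLC3A2 (-0.0013), SLC6A9 (-0.18), EIF4EBP1 (-0.10) and EIF2AK4 (0.095). SLC6A9 was at -1.08e-05 with a pseudocount of 5 and -0.0059 with the block, where EIF2AK4 was at 0.035. Without single libraries SLC6A9 ranged from -0.075 to 0.075, ASNS from -0.11 to 0.21, SLC7A5 from -0.086 to 0.041, EIF2AK4 from -0.097 to 0.035 and EIF2AK1 from -0.083 to 0.0011. The difference of the log2 ratio of SLC7A11 to SLC3A2 and of SLC7A5 to SLC3A2 kept its sign without each library (-1.05 to -1.41 and -0.075 to -0.24). The causes were not tested. With depth unknown, low genes such as NUPR1 cannot be given a counting error.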
